A study of Mus musculus with 12 samples.

Results

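Oxidative phosphorylation is carried out in the inner mitochondrial membrane by 5 protein complexes whose subunits come from both genomes of the cell. Complexes I to IV pass electrons from NADH and succinate to oxygen and, except complex II, pump protons, and complex V (ATP synthase) uses the proton gradient to make ATP. The mitochondrial DNA supplies core membrane subunits of complexes I, III, IV and V, while the remaining subunits are transcribed in the nucleus, so that assembly needs both sets. Hepatocytes are rich in mitochondria and use this ATP for urea synthesis, gluconeogenesis and protein export.

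The genes were taken by symbol among the 55385 gene identifiers of the files: protein-coding genes named mt-Nd, mt-Co, mt-Atp or mt-Cytb, Ndufa, Ndufb, Ndufc, Ndufs or Ndufv, Sdha to Sdhd, Uqcr, Atp5, or Cox with a subunit number from 4 to 8, without the Ndufaf assembly factors. This gave 103 genes, 13 mitochondrially encoded and 90 nuclear. The spelling rule also took in 5 nuclear genes that are not structural subunits, namely the complex II assembly factors Sdhaf1, Sdhaf2, Sdhaf3 and Sdhaf4, and Atp5s (coupling factor s), which leaves 85. Ndufa4 and its paralog Ndufa4l2, named for complex I, were placed in complex IV, where the protein is known to reside. Of the nuclear genes, 36 fell in complex I, 8 in complex II, 8 in complex III, 20 in complex IV and 18 in complex V. A filter on low counts left 84 nuclear and all 13 mitochondrial genes to be tested.

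The cells were primary mouse hepatocytes freshly isolated from 3 mice and cultured on collagen in Williams' E medium with 10% fetal serum, 2 mM glutamine, 100 nM dexamethasone and 5% ITS (insulin, transferrin and selenium). Each mouse gave 1 library to each of 4 groups, and all cells had siRNA for 48 h: a control siRNA (siCon), siRNA against Hnf4a (siHnf4a), against Cebpa (siCebpa), or against both (the double knockdown). Hnf4a is a nuclear receptor and Cebpa a leucine zipper factor, both of which maintain liver gene expression. No source used here gives the strain, age or sex of the mice or the siRNA sequences.

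Estimated counts summed to between 22453445 and 25008195 per library. Levels below are CPM (counts relative to library size, scaled by TMM) or TPM (transcript abundance per length), the latter wherever genes are compared with each other. Hnf4a stood at 144, 248 and 297 CPM in siCon of mice 1, 2 and 3, and at 56.7, 59.2 and 46.4 CPM in siHnf4a. In the double knockdown it was at 40.1, 33.5 and 34.1 CPM. Cebpa stood at 179, 211 and 189 CPM in siCon and at 33.7, 30.3 and 26.1 CPM in siCebpa, but at 109, 89.0 and 84.5 CPM in the double knockdown, so Cebpa was reduced less there than in siCebpa. The 12 hepatocyte markers together ranged from 28210 to 32420 CPM with siCon and from 25680 to 32170 CPM with siCebpa. Their sum was lower where Hnf4a was knocked down, at 14410 to 20530 CPM with siHnf4a alone and 10730 to 14680 CPM with both siRNAs, but the single markers went both ways: with siHnf4a 3 of 12 were called higher and 4 lower (median -0.02), and with both siRNAs 1 higher and 5 lower (median -0.63). The summed markers of Kupffer cells, sinusoidal endothelium, stellate cells and bile duct cells lay between 32.2 and 423 CPM, and leukocyte and erythroid markers at or under 1.22 CPM. Bile duct markers were lower in every mouse with siCebpa (35.1, 106 and 125 CPM) than with siCon (79.1, 204 and 269 CPM), and their medians against siCon were -1.54, -0.91 and -1.90 with siHnf4a, siCebpa and both, with 2, 0 and 2 of 4 called lower and 4, 3 and 4 with mouse as a block. Called lower over all genes were 7.29%, 1.72% and 7.13% with siHnf4a, siCebpa and both, and 15.5%, 8.11% and 15.6% with the block. Called higher without the block were 7.24% with siHnf4a and 6.9% with both siRNAs. The 11 tested Kupffer markers had medians of -1.01, -1.23 and -1.25, with 0 called and 3, 3 and 6 lower with the block. The sum of the 13 listed Kupffer markers did not follow these medians. It was at 263, 83.8 and 94.4 CPM with siCon and at 423, 124 and 96.4 CPM with siHnf4a. With siCebpa it was at 371, 63.5 and 59.8 CPM, and with both siRNAs at 355, 93.4 and 107 CPM. The part of these shifts in the values below was not tested. In bulk RNA, fewer cells of a type and less RNA per cell cannot be told apart.

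The mitochondrial transcripts need a word on what was counted, because nuclear copies of mitochondrial DNA share their sequence. A block on mouse chromosome 1 holds annotated pseudogenes that match mitochondrial genes, and reads from the shared stretch cannot be assigned to one or the other. Over their first bases mt-Co2, which encodes the copper-binding subunit 2 of cytochrome c oxidase (chrM:7013-7696, plus strand, coding exon), and its copy Gm28661 (chr1:24614885-24615565, minus strand, GENCODE M21 on GRCm38) read, 5′ to 3′:
mt-Co2: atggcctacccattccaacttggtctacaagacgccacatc
Gm28661: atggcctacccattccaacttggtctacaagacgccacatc
Over the 681 aligned bases the copy showed 0 differences from the gene, and 88.6% of the counts of mt-Co2 and its copies stood under the copies. For mt-Co1, the catalytic subunit 1 of the same enzyme (chrM:5328-6872, plus strand), the copy Gm29216 (chr1:24615706-24616197, minus strand) covers only the 3′ part, with 1 difference in 483 aligned bases, A1066T counted from the first base of mt-Co1, shown in capitals. The alignment starts at base 1063, so the letters printed more than 3 bases before the capital lie outside it:
mt-Co1: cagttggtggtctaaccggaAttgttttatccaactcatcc
Gm29216: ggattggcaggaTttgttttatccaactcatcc
The copies took 15.4% of the mt-Co1 counts, 53.2% of those of mt-Co3 (Gm28437, 783 bases with 0 differences), 39.2% of mt-Atp6 (Gm10925, 678 bases with 0 differences) and 92.6% of mt-Nd3 (Gm28438, 342 bases with 0 differences). A further source of shared reads lies within the mitochondrial DNA, where the frames of mt-Atp8 and mt-Atp6, the small and the large membrane subunit of ATP synthase, overlap by 43 bases (chrM:7927-7969, plus strand). That stretch, which opens with the start codon of mt-Atp6 and ends with the stop codon of mt-Atp8, reads:
Atp8-Atp6 overlap: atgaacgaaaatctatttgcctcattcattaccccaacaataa
Shorter overlaps join mt-Nd4l to mt-Nd4 (7 bases) and mt-Nd5 to mt-Nd6 on opposite strands (14 bases).

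**Figure D1:**
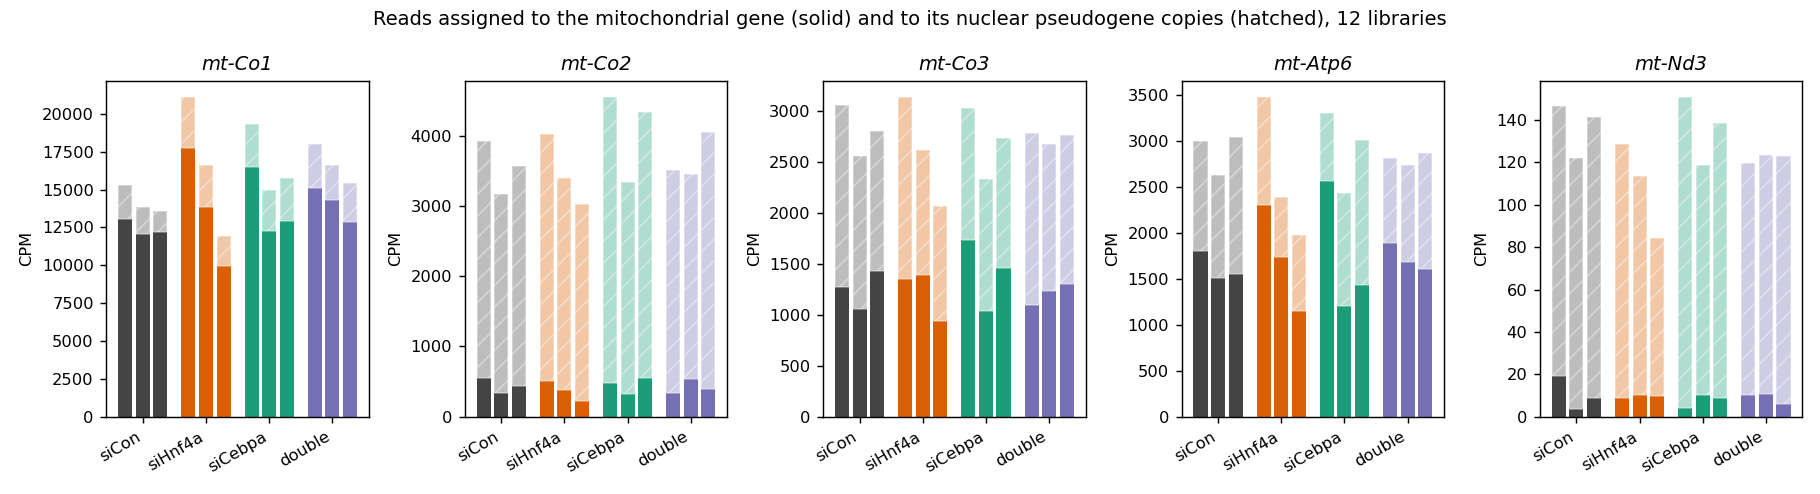
CPM of 5 mitochondrial genes in each of the 12 libraries (bars, mice 1 to 3 from left to right in each group). Solid bars are counts under the mitochondrial gene and hatched bars those under its nuclear pseudogene copies. For mt-Co2 and mt-Nd3 nearly all of the bar is hatched in every library, and for mt-Co1 most of it is solid.

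Transcripts of the 13 mitochondrial genes took 2.88% ± 0.11 (SD, n = 3) of the counts in siCon. The share was 3.05% ± 0.85 with siHnf4a, 3.05% ± 0.47 with siCebpa and 3.19% ± 0.20 with both siRNAs (SD, n = 3 each). With the nuclear copies added it was 3.67% ± 0.18, 3.89% ± 1.01, 3.92% ± 0.49 and 4.06% ± 0.17 (SD, n = 3), in the same order of groups. The siHnf4a libraries spread most, at 4.92%, 3.85% and 2.89% with copies for mice 1, 2 and 3, and their range covers that of the 3 other groups. None of the 13 genes passed the threshold of an adjusted p of 0.05 (edgeR's quasi-likelihood test) in any of the 3 knockdowns against siCon. Of all genes tested, 7.24% were called higher and 7.29% lower with siHnf4a, 2.94% and 1.72% with siCebpa, and 6.9% and 7.13% with both siRNAs. The count of mitochondrial genes at an unadjusted p under 0.05 was 0 in each of these comparisons, beside 4336, 3063 and 4263 of all 15090 genes. DESeq2 and a fit with mouse as a block also called 0 mitochondrial genes. The precision was limited. Standard errors of the log2 fold changes against siCon ran from 0.16 for mt-Nd1 to 0.51 for mt-Nd3.

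Among the core subunits of complex I, mt-Nd1, mt-Nd2, mt-Nd4 and mt-Nd5 moved by -0.15 to 0.17 log2 units in siHnf4a and by 0.12 to 0.16 in siCebpa. mt-Nd5 was at 2124, 2197 and 2097 CPM in siCon of mice 1, 2 and 3 and at 3099, 2454 and 1692 CPM in siHnf4a, so that 1 library lay below all siCon libraries and the other two above. The largest positive estimate against siCon was that of mt-Nd6, the only one of the 13 encoded on the minus strand of the reference, in the double knockdown. mt-Nd6 was at 715, 676 and 644 CPM in siCon and at 774, 1071 and 949 CPM in the double knockdown. Of the 13 genes, 4 (mt-Nd6, mt-Nd4, mt-Nd5 and mt-Atp8) had every double knockdown library above every siCon library and 0 below, as did 16.5% and 16.3% of all genes tested. For mt-Nd6 the log2 fold change was 0.46 ± 0.22 (SE, 95% interval -0.04 to 0.95, adjusted p = 0.211). mt-Cytb, the core of complex III, differed from siCon by -0.16 ± 0.17, -0.07 ± 0.17 and -0.04 ± 0.17 (SE) in siHnf4a, siCebpa and the double knockdown.

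For the catalytic subunits of complex IV, mt-Co1 differed from siCon by 0.16 ± 0.21, 0.16 ± 0.21 and 0.18 ± 0.21 (SE) in the same order. mt-Co1 was the most abundant of the 13 on the TPM scale, at 13130 ± 341 TPM in siCon (SD, n = 3). mt-Co3, another core subunit, gave -0.03 ± 0.20, 0.17 ± 0.20 and -0.05 ± 0.20, and mt-Co2 -0.26 ± 0.29, 0.01 ± 0.29 and -0.07 ± 0.29. For ATP synthase, mt-Atp8 gave 0.03 ± 0.29, 0.27 ± 0.29 and 0.21 ± 0.29 and mt-Atp6 0.10 ± 0.29, 0.09 ± 0.29 and 0.09 ± 0.29. Every 95% interval named here for complexes III, IV and V included 0. The remaining complex I genes mt-Nd3 and mt-Nd4l also had intervals that included 0 in all 3 comparisons. The share of counts left with the gene rather than its copies varied between libraries, from 7.58% to 15.3% for mt-Co2 and from 2.58% to 13.1% for mt-Nd3. With the counts of the copies added, the log2 fold changes of mt-Co2 were -0.03, 0.20 and 0.05 and those of mt-Nd3 -0.33, -0.01 and -0.16 in siHnf4a, siCebpa and the double knockdown. With them, mt-Co1 stood at 0.22, 0.23 and 0.23, mt-Co3 at -0.11, -0.06 and -0.03, and mt-Atp6 at -0.15, 0.01 and -0.04, and none was called.

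**Figure D2:**
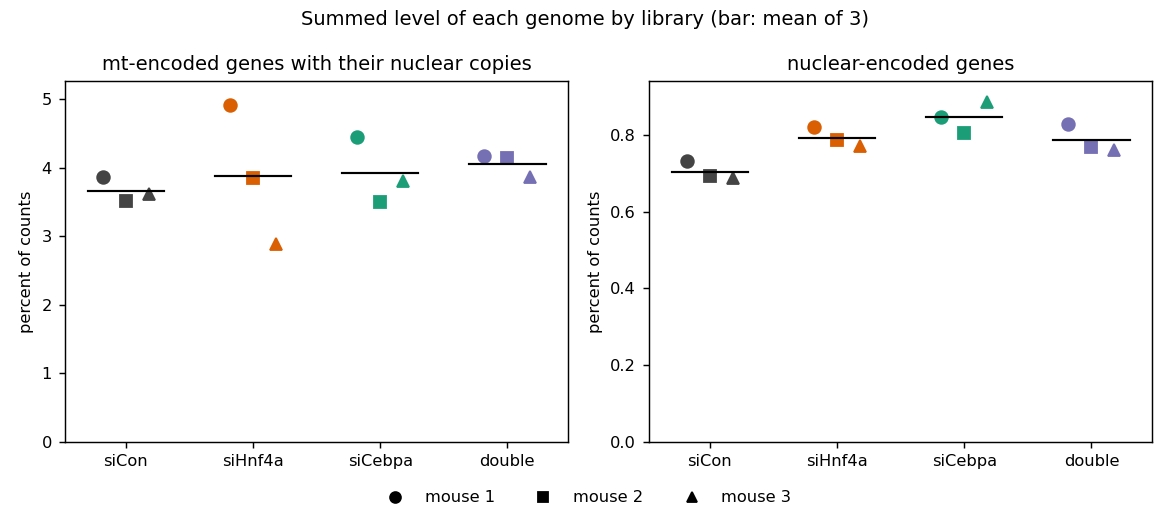
Percent of all counts taken by the 13 mitochondrial genes with their nuclear copies (left) and by the 90 nuclear genes (right) in each library; symbols mark mice, bars the mean of 3, and both axes start at 0. The nuclear sum lay above all siCon libraries in every knockdown library, while the mitochondrial sums of siHnf4a spread from 2.89% to 4.92%.

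Nuclear genes passed the test more often, a difference that was not itself tested. The 90 together took 0.704% ± 0.024 of the counts with siCon, 0.793% ± 0.025 with siHnf4a, 0.846% ± 0.040 with siCebpa and 0.786% ± 0.037 with both siRNAs (SD, n = 3 each). The lowest knockdown library, at 0.761%, was above the highest siCon library, at 0.732%. On the per-length TPM scale the shares were 1.61%, 1.81%, 1.84% and 1.75% in the same order. The ratio of mitochondrial to nuclear TPM was 3.20 ± 0.12 with siCon, 2.86 ± 0.77 with siHnf4a, 2.70 ± 0.41 with siCebpa and 3.11 ± 0.22 with both siRNAs (SD, n = 3).

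In the fit to all 12 libraries, siCebpa gave the most calls of nuclear genes among the 3 knockdowns, an order that changed in other fits given below. Of 84 nuclear genes, 34 were higher and 0 lower in siCebpa than in siCon, against 2.94% higher and 1.72% lower of all 15090 genes tested. The median log2 fold change of the 84 was 0.35 (0.00 over all genes), and 79 had a value above 0, beside 7563 of all genes. In edgeR's test 59 of the 84 had an unadjusted p under 0.05, beside 3063 of all genes. In 59 genes every siCebpa library lay above every siCon library, and in 0 below, against 13.6% above and 10.1% below of all genes tested. Complex IV had 8 of 15 tested genes higher, complex I 16 of 36, complex V 7 of 17, complex III 2 of 8 and complex II 1 of 8.

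**Figure D3:**
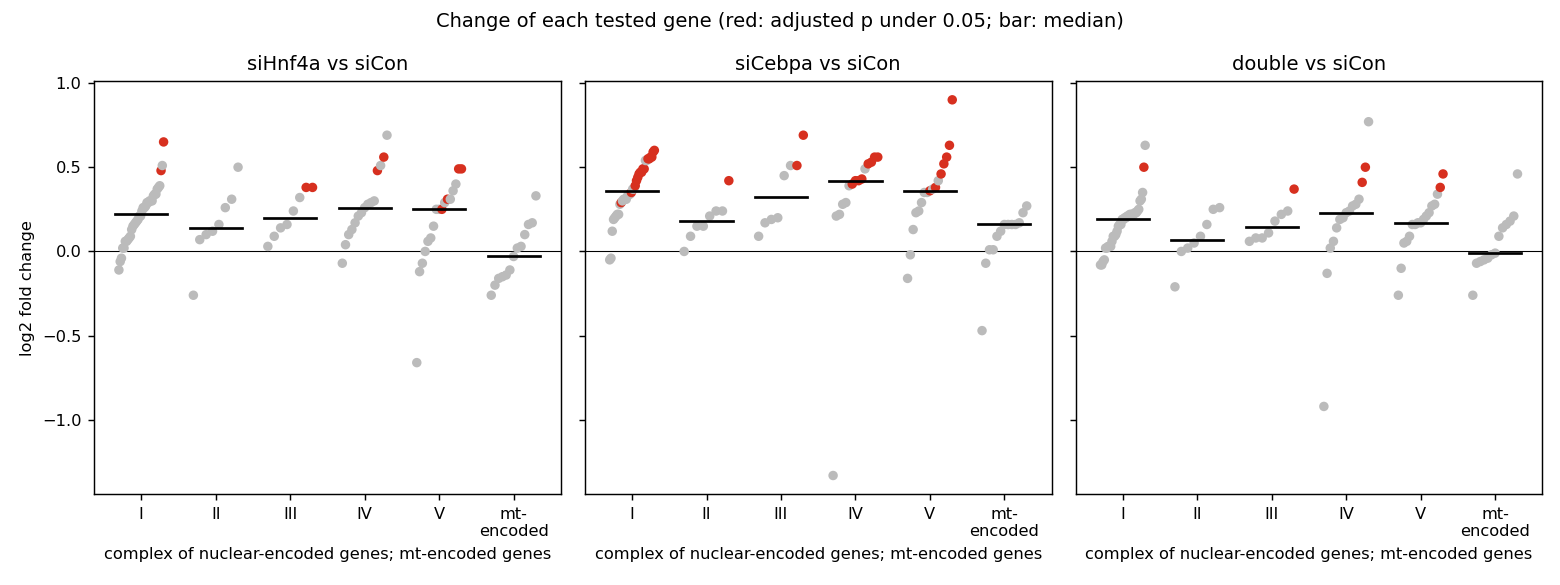
Log2 fold change against siCon of each tested gene (points) in 3 comparisons, grouped by the complex of the nuclear genes, with the mitochondrial genes in the last column; red points had an adjusted p under 0.05 and bars are medians. In siCebpa the medians of complexes I, III, IV and V lay between 0.33 and 0.42, that of complex II at 0.18 and that of the mitochondrial genes at 0.16.

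The largest rises were in small accessory subunits. Atp5k, the e subunit in the membrane part of ATP synthase (chr5:108433244-108434448, minus strand), was at 18.7, 14.4 and 17.4 CPM in siCon of mice 1, 2 and 3 and at 30.5, 26.5 and 36.8 CPM in siCebpa. All siCebpa libraries lay above all siCon libraries, a log2 fold change of 0.90 ± 0.13 (SE, adjusted p = 0.00692, higher in 3 of 3 mice). Uqcr11, the smallest subunit of complex III (chr10:80402997-80406830, minus strand), was at 54.0, 48.9 and 53.8 CPM in siCon and at 81.9, 75.4 and 94.6 CPM in siCebpa. Its fold change was 0.69 ± 0.10 (SE, adjusted p = 0.00525), and siHnf4a and the double knockdown, at 50.4 to 62.5 CPM, stayed below every siCebpa library. Ndufb8, an accessory subunit of the complex I membrane arm, showed the same layout, with 62.9, 56.4 and 61.5 CPM in siCon, 88.4, 86.2 and 97.0 CPM in siCebpa and 57.7 to 63.9 CPM in the other two groups. It rose by 0.59 ± 0.07 (SE, adjusted p = 0.00255).

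Atp5e, the epsilon subunit of the ATP synthase stalk, rose by 0.63 ± 0.10, from 34.9, 34.4 and 30.4 to 48.0, 49.9 and 56.8 CPM. Ndufa2, an accessory subunit of the complex I matrix arm, rose by 0.60 ± 0.10, from 41.5, 37.7 and 34.5 to 57.7, 51.7 and 63.3 CPM; 66 of its exon bases overlap Tmco6 on the other strand, and no source used here says whether counting used strand. Ndufb7, Ndufb11, Cox5b, Cox7b and Atp5l (subunit g of ATP synthase) each rose by 0.56 log2 units. Ndufa2 is not alone in such an overlap. Among genes named here or below, Ndufb11 shares 117 exon bases with Rbm10, Atp5f1 337 with Wdr77 and Cox4i1 154 with Emc8, all on the other strand. Mouse 3 gave the highest siCebpa value for Atp5k, Uqcr11, Ndufb8, Atp5e and Ndufa2.

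**Figure D4:**
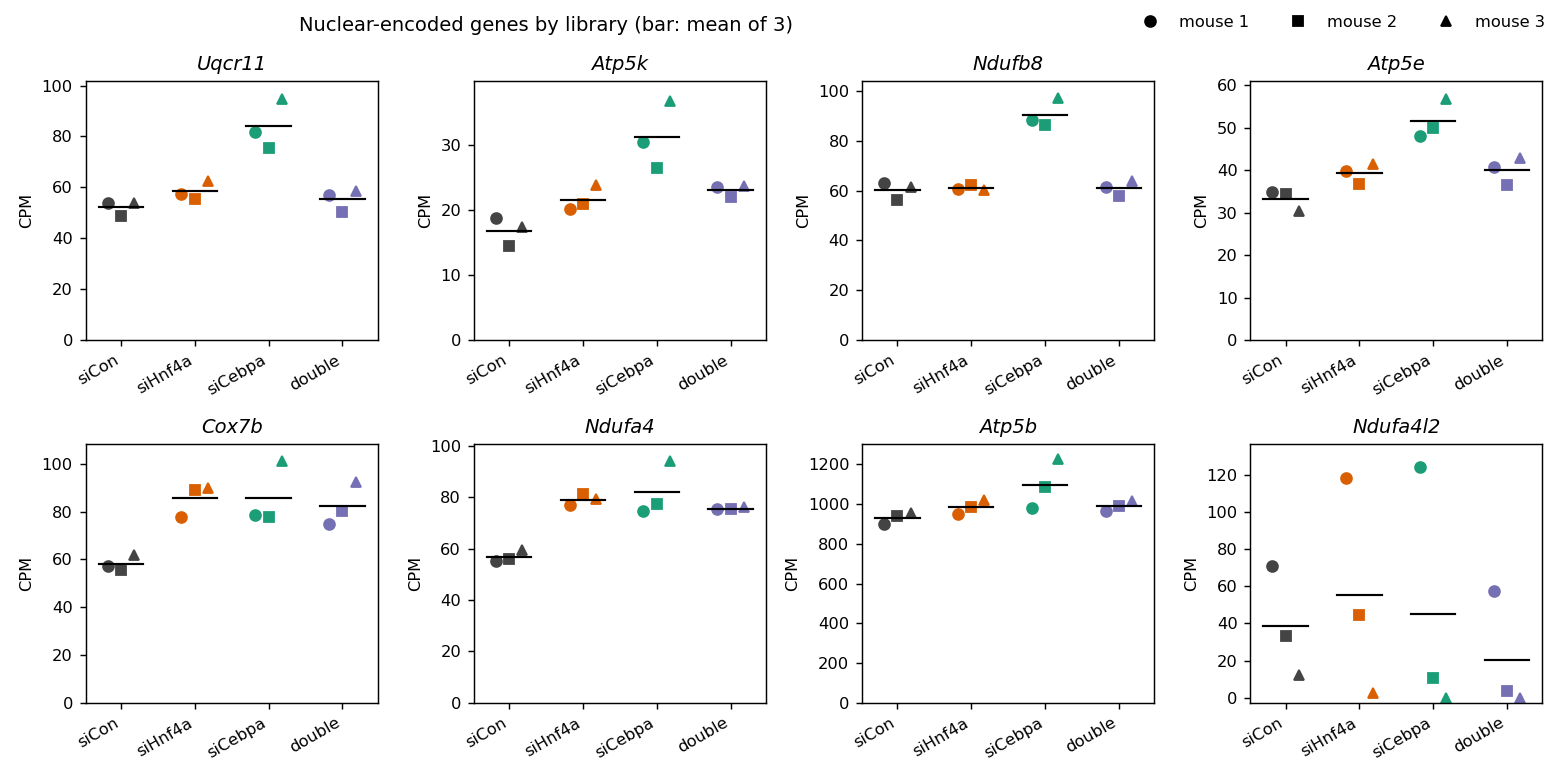
CPM of 8 nuclear genes in the 12 libraries; symbols mark mice and bars the mean of 3. Uqcr11, Ndufb8, Atp5e and Atp5k were highest in siCebpa, Cox7b and Ndufa4 lay above siCon in all 3 knockdowns, and Ndufa4l2 followed the mouse more than the group.

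Catalytic and abundant nuclear subunits were found both above and below the median of 0.35. Atp5b, the catalytic beta subunit of ATP synthase and the nuclear gene of complex V with the highest TPM in siCon, was at 898, 940 and 955 CPM in siCon and 983, 1085 and 1226 CPM in siCebpa (0.24 ± 0.10, adjusted p = 0.194). Sdha, the flavoprotein of succinate dehydrogenase, differed by 0.15 ± 0.07 (adjusted p = 0.278). Ndufs1, a core subunit of the electron input arm of complex I, differed by 0.20 ± 0.09, and Uqcrc1, a core protein of complex III, by 0.09 ± 0.10. Sdhb, the iron-sulfur subunit of complex II, was the only one of its complex called in this fit, at 0.42 ± 0.08 (adjusted p = 0.022), and 2 of 8 were called with mouse as a block. Ndufs8, another core subunit of complex I, rose by 0.46 ± 0.09, and Ndufv1 had 0.37 ± 0.10 (adjusted p = 0.0628). Among the most abundant genes of other complexes, Ndufa7 (complex I) rose by 0.49 ± 0.06 and Cox6a1 (complex IV) by 0.42 ± 0.09, and Uqcrq (complex III) had 0.51 ± 0.17 (adjusted p = 0.118, and 0.00182 with the block). Sdhc, the complex II gene with the highest TPM in siCon, differed by 0.21 and was not called. The core genes other than Atp5b were chosen for their roles after their values had been seen.

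The siCebpa count depended on the fit. With mouse as a block it was 55 higher and 0 lower (8.73% and 8.11% of all genes), and with only the siCon and siCebpa libraries in the fit it was 0 (0.16% of all genes higher), with 54 of 83 genes at an unadjusted p under 0.05, a lowest adjusted p of 0.0588 and 45 genes called in all. On log2(TPM + 1), where the median of all genes moved by -0.12, limma called 10 of 85 higher (0.685% of all genes) and 0 lower and the median of the nuclear genes was 0.17. The same fits called 10 for siHnf4a against siCon with only the compared groups (6.31% of all genes) and 12 with limma on TPM (5.78%), so siCebpa had fewer calls than siHnf4a in both. Single libraries also moved it: the count was 8 without siCon of mouse 2, 9 without siCon of mouse 3, 11 without siCebpa of mouse 3, 17 without siHnf4a of mouse 2 and 22 without the double knockdown of mouse 2. No share of all genes is given for fits without a library, here or below. Whether those shifts were particular to the nuclear genes was not tested.

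Summed TPM per complex gave a like picture at the level of whole complexes. Complex I subunits summed to 4334 ± 235 TPM in siCon and 4963 ± 255 TPM in siCebpa, and complex IV to 4267 ± 156 and 4945 ± 253 TPM. Complex III summed to 2062 ± 85 and 2445 ± 163 TPM, and complex V to 4822 ± 140 and 5426 ± 393 TPM. The siCebpa libraries did not overlap those of siCon for these 4 complexes. Complex II was at 578 ± 19 and 592 ± 31 TPM, within the spread between libraries, but in CPM, the scale of the tests, it was at 497 ± 5.6 and 571 ± 29 with no overlap (SD, n = 3 throughout).

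With siHnf4a 10 of 84 nuclear genes were higher and 0 lower, against 7.24% and 7.29% of all genes tested. The median of the 84 was 0.24, and 75 values lay above 0, beside 7548 of all 15090 genes. With mouse as a block the counts were 36 higher and 2 lower (14.5% and 15.5% of all genes). The 2 lower ones were Sdhd, a membrane anchor of complex II (-0.26 ± 0.13), and Atp5g2, a gene for the c ring subunit (-0.66 ± 0.23), of whose counts with its copies 95.4% stood under pseudogenes. Without siCon of mouse 2 the count was 3, without siHnf4a of mouse 2 it was 4 and without siHnf4a of mouse 1 it was 5.

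Among the genes called, Ndufa5, an accessory subunit of the complex I matrix arm, had the largest change. It was between 13.7 and 17.2 CPM in siCon and at 24.8, 23.9 and 21.6 CPM in siHnf4a, a change of 0.65 ± 0.15 (SE, adjusted p = 0.0165). Cox7b, a small subunit of complex IV on the X chromosome, was at 57.2, 55.6 and 61.7 CPM in siCon and at 77.8, 89.1 and 90.0 CPM in siHnf4a (0.56 ± 0.12, adjusted p = 0.0107). Ndufa4 went from 55.3, 55.8 and 59.5 to 77.0, 81.0 and 79.1 CPM (0.48 ± 0.09, adjusted p = 0.00475). In all 3 genes the siHnf4a libraries lay above every siCon library. Atp5j2 and Atp5mpl of ATP synthase rose by 0.49 each, Ndufb3 of complex I by 0.48, and Uqcr10 and Uqcrb of complex III by 0.38 each. The remaining calls were Atp5l (0.31 ± 0.09) and Atp5f1 (0.25 ± 0.08).

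In the double knockdown 6 of 84 nuclear genes were higher than in siCon and 0 lower, against 6.9% and 7.13% of all genes tested. The count of higher nuclear genes was thus near the share of all genes called higher. The median of the nuclear genes was 0.18, and 74 of 84 values lay above 0, beside 7553 of all 15090 genes. The 6 called were Cox7b (0.50 ± 0.12), Ndufa5 (0.50 ± 0.15), Atp5k (0.46 ± 0.13), Ndufa4 (0.41 ± 0.09), Atp5j2 (0.38 ± 0.08) and Uqcr10 (0.37 ± 0.08). Cox7b stood at 74.9, 80.5 and 92.2 CPM and Ndufa4 at 75.3, 75.2 and 76.0 CPM, again above every siCon library. With mouse as a block 20 were higher (13.8% of all genes), and DESeq2 called 12 (9.12%). Without siCon of mouse 2 the count was 2, without the double knockdown of mouse 1 it was 3, and without siCebpa of mouse 3 it was 11. All 3 comparisons share the siCon libraries, so that a low or high siCon value enters each of them.

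Compared directly by counts, some nuclear genes were lower in both groups given siHnf4a than in siCebpa, while on the TPM scale the sets lay close together. In siHnf4a 18 nuclear genes were lower and 0 higher than in siCebpa (8.67% and 7.51% of all genes tested), and in the double knockdown 12 were lower and 0 higher (6.47% and 6.51%). Ndufb8 was lower by the same amount in both, at -0.57 ± 0.07 (adjusted p = 0.000686 in siHnf4a and 0.000795 in the double knockdown). Uqcr11 differed by -0.52 ± 0.10 and -0.60 ± 0.10, Ndufa2 by -0.54 ± 0.10 and -0.40 ± 0.10, and Cox4i1, the common isoform of a complex IV core-binding subunit, by -0.47 ± 0.08 and -0.38 ± 0.08. Ndufv1, the NADH-binding flavoprotein of complex I, was lower by 0.48 and 0.42 log2 units in siHnf4a and the double knockdown: it was at 78.1, 92.7 and 107 CPM in siCebpa and at 64.0 to 72.2 CPM in the other two groups.

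With mouse as a block the double knockdown had 24 genes lower and 1 higher than siCebpa (14.3% and 13% of all genes). On log2(TPM + 1) limma called 2 lower for the double knockdown (2.65% of all genes) and 5 lower and 2 higher for siHnf4a (3.37% and 11.4%), each against siCebpa. The medians of the nuclear genes on that scale were -0.03 and 0.03, beside 0.09 and 0.10 over all genes, and summed TPM of siHnf4a and siCebpa were 4951 ± 133 and 4963 ± 255 for complex I, 2471 ± 84 and 2445 ± 163 for complex III, and 4914 ± 151 and 4945 ± 253 for complex IV (SD, n = 3). For the double knockdown against siCebpa the count was 4 without the double knockdown of mouse 2, 5 without that of mouse 3, 5 without siCebpa of mouse 3 and 7 without siHnf4a of mouse 2. For siHnf4a against siCebpa it was 6 without siHnf4a of mouse 2, 6 without siCebpa of mouse 3 and 8 without siHnf4a of mouse 1. Between the double knockdown and siHnf4a edgeR called 0 nuclear genes, and DESeq2 and the block also called 0. In edgeR 1 of 84 had an unadjusted p under 0.05, beside 373 of all 15090 genes. Of all genes, 0.00663% were called lower in the double knockdown with and without the block, 1 gene in all, Cebpa. Every double knockdown library lay above every siHnf4a library in 1 of the 84 and below in 8, beside 3.71% and 3.76% of all genes.

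The interaction asks whether the double knockdown differs from the sum of both single ones. Of the 84 nuclear genes 2 had a value above 0, beside 7320 of all 15090 genes. Their median was -0.39, and that of all genes -0.01. edgeR called 0 of the 84 (0.053% of all genes were called higher and 0.0331% lower). It gave 51 of 84 an unadjusted p under 0.05, beside 1488 of all 15090 genes. The lowest adjusted p of the 84 was 0.0767 for Ndufb8 (-0.59 ± 0.10). DESeq2 called 21 lower (1.48% of all genes), limma on log2(TPM + 1) called 0 with a median of -0.22 (0.12 over all genes), and with mouse as a block 27 were lower and 0 higher (1.83% and 1.99% of all genes). With the block, Uqcr11 had -0.76 (adjusted p = 0.00325) and Atp5k -0.79 (adjusted p = 0.0172). Cebpa itself had an interaction of 1.5 ± 0.18 (adjusted p = 0.0131), since it was reduced less in the double knockdown, and the part of that in the values of the subunits was not tested.

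Genes with tissue or oxygen dependent isoforms were read apart. Cox4i2, the lung and hypoxia isoform beside Cox4i1, was at or under 0.425 CPM in every library, Cox7a1, the muscle isoform beside Cox7a2, at or under 0.436 CPM, and Cox8b at or under 0.0432 CPM. Cox7b2 and Cox8c had 0 counts in all 12 libraries, and with a second annotated entry of Atp5o these 6 were the nuclear genes not tested. The muscle isoform Cox6a2 reached 1.87 CPM at most, against 201 to 313 CPM for the liver isoform Cox6a1. Cox6b2, the testis isoform, stayed at or under 0.637 CPM and had the lowest estimate in siCebpa, -1.33 ± 0.79 (adjusted p = 0.381).

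Ndufa4l2, the paralog of Ndufa4 known to be induced by hypoxia, varied more than any isoform gene named here and followed the mouse. In mice 1, 2 and 3 it was at 70.7, 33.1 and 12 CPM with siCon, 118, 44.6 and 2.63 CPM with siHnf4a, and 124, 10.5 and 0.177 CPM with siCebpa. In the double knockdown it was at 57.4 and 3.51 CPM in mice 1 and 2 and was listed at 0 in mouse 3. Mouse 1 was highest and mouse 3 lowest in all 4 groups. No comparison against siCon was called, with standard errors from 1.74 to 1.77 log2 units, and with mouse as a block the double knockdown had an adjusted p of 0.0563. Ndufa4 itself differed little between mice, with 55.3 to 59.5 CPM in siCon.

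Some nuclear genes share reads with processed pseudogenes, and their values are uncertain for that reason. The copies held 64.4% of the counts of Ndufb4 with its copies, 59.9% for Ndufa12, 28.9% for Atp5g1, 15.8% for Cox7c and 8.16% for Atp5l. With the copies' counts added to their genes, 36 genes were higher in siCebpa. The share of all genes called in that fit is not given, so this count cannot be set against it. Of the 3 genes for the ATP synthase c subunit, Atp5g3 was the most abundant, at 420 ± 23 TPM in siCon, beside 156 ± 8 TPM for Atp5g1 and 18.4 ± 0.9 TPM for Atp5g2 (SD, n = 3).

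Most nuclear members have short annotated transcripts, so their change was set beside that of other genes of like length. Length here is the median over a gene's annotated protein-coding transcripts. It need not be that of the transcript expressed in these cells, so single genes may stand in the wrong class. Of the 50 with a median annotated transcript under 800 bases, 24 were higher in siCebpa, with a median of 0.42. The 1385 other protein-coding genes of that length had a median of 0.09, with 6.71% called higher. Of 26 members of 800 to 1500 bases, 9 were higher, with a median of 0.31 beside 0.08 and 5.25% for 2703 other genes. Over all other genes the median fell with length to -0.08 above 3000 bases, where 1.02% were called higher. In siHnf4a 16.0% of members under 800 bases were called higher, beside 8.52% of other genes, with medians of 0.27 and 0.04. From 800 to 1500 bases it was 7.69% beside 9.4%, with medians of 0.23 and 0.03. The double knockdown gave 10.0% beside 8.81% and 3.85% beside 8.88%, with medians of 0.20 beside 0.04 and 0.19 beside 0.04. Across the 84 members, log2 fold change correlated with log2 length at -0.17 in siCebpa, -0.26 in siHnf4a and -0.25 in the double knockdown. That is a description across genes that are not independent.

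**Figure D5:**
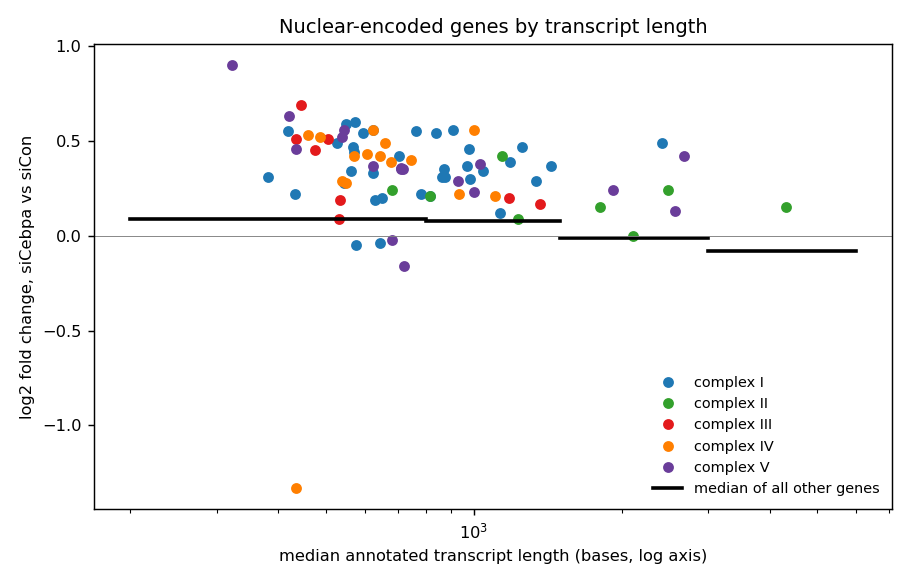
Log2 fold change in siCebpa against siCon of the 84 tested nuclear genes, by median annotated transcript length on a log axis; colors mark complexes and black lines are medians of all other protein-coding genes in 4 length classes, the last without an upper limit. Most members lie above the line of their class, whose medians fall from 0.09 to -0.08.

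Promoters of these genes are known to carry sites of nuclear respiratory factors. RefSeq promoters (GRCm38.p6, 250 bases before to 50 after the start) matched 68 of the 84 genes, and each word was searched on both strands. The ETS word CCGGAAG, bound by GABPA (NRF-2), was in 27.9% of the 68 and in 9.93% of 27025 genes, the NRF1 palindrome in 7.35% and 1.07%, and the YY1 word AAGATGGC in 13.2% and 3.19%. The ERRA word TCAAGGTCA was in 2.94% and 0.466%. The C/EBP word TTGCNNAA was in 11.8% and 12.2%, and the HNF4A word CAAAGTNCA in 0 of 68 and in 1.64% of all genes. Among the 28 matched genes higher in siCebpa, 11 held the ETS word and 2 the C/EBP word, and among the 40 others 8 and 6. A match of letters is not a bound site. The 100 bases before the RefSeq start of Uqcr11 (chr10:80406822-80406921, minus strand) and Cox6a1 (chr5:115348959-115349058, minus strand), both higher in siCebpa, and of Sdhd (chr9:50603850-50603949, minus strand; 0.09 ± 0.13 in siCebpa, adjusted p = 0.742) each hold the ETS word on one strand, in capitals, and that of Cox6a1 also holds the C/EBP word:
Uqcr11: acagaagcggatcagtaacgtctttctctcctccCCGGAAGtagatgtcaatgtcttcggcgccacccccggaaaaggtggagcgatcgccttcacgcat
Cox6a1: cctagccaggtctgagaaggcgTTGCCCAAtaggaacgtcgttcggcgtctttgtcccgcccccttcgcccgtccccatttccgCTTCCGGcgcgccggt
Sdhd: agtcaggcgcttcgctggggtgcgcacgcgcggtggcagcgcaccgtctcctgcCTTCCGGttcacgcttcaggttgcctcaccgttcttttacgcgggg
These promoters are examples, and the counts above cover all 68 matched genes.

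Of the factors and coactivators that control mitochondrial biogenesis, 1 of 21 rose and 1 fell in siCebpa (2.94% and 1.72% of all genes). Ppard, a nuclear receptor of fatty acid oxidation, rose by 0.60 ± 0.09, and Nfe2l2, a regulator of the antioxidant response, fell by 0.49 log2 units. The values were -0.44 ± 0.25 for the coactivator Ppargc1a, 0.31 ± 0.24 for Ppargc1b, 0.33 ± 0.12 for Esrra (adjusted p = 0.156, and 0.0241 with mouse as a block), 0.01 ± 0.10 for Nrf1, -0.04 ± 0.09 for Gabpa and 0.05 ± 0.07 for Yy1. In siHnf4a 4 of 21 rose and 0 fell (7.24% and 7.29% of all genes): Thrb, a thyroid hormone receptor (1.23 ± 0.20), Ppard (0.54 ± 0.09), Nfe2l2 (0.50 ± 0.12) and Prkaa1, a catalytic subunit of AMP-activated kinase (0.28 ± 0.07). In the double knockdown 3 of 21 rose (Thrb, Ppard and Prkaa1) and 0 fell (6.9% and 7.13% of all genes). With mouse as a block 2 rose and 2 fell in siCebpa (8.73% and 8.11% of all genes). The block gave 5 and 2 in siHnf4a (14.5% and 15.5%) and 5 and 0 in the double knockdown (13.8% and 15.6%).

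The proteins that make the mitochondrial subunits are themselves nuclear encoded. Of 78 mitochondrial ribosomal protein genes, 21 were higher and 0 lower in siCebpa, with a median of 0.29 (2.94% and 1.72% of all genes), and 41 were higher with mouse as a block (8.73%). Mrpl30 rose by 0.59 ± 0.08, Mrpl46 by 0.53 ± 0.11 and Mrps7 by 0.52 ± 0.08. In siHnf4a 7 were higher and 1 lower (7.24% and 7.29% of all genes), and 17 and 1 with mouse as a block (14.5% and 15.5%). In the double knockdown 11 were higher and 0 lower (6.9% and 7.13% of all genes), and 21 and 1 with the block (13.8% and 15.6%). Of 42 genes of mitochondrial transcription, RNA handling and translation, 2 were higher and 0 lower in siCebpa (2.94% and 1.72% of all genes): Slirp, which stabilizes mitochondrial messenger RNA (0.56 ± 0.13), and Hsd17b10, a part of mitochondrial RNase P (0.38 ± 0.07). With mouse as a block 9 of the 42 were higher and 0 lower (8.73% and 8.11% of all genes). The median of the 42 was 0.16, and in 14 every siCebpa library lay above every siCon library (13.6% of all genes). Tfam, which packages and transcribes mitochondrial DNA, differed by 0.12 ± 0.11. Of 48 tested assembly factors 5 were higher in siCebpa (2.94% of all genes), among them Ecsit of complex I (0.54 ± 0.08) and Cox14 of complex IV (0.45 ± 0.09). With the block 11 of the 48 were higher and 2 lower (8.73% and 8.11% of all genes). Of 20 genes of the citric acid cycle and cytochrome c, 2 were higher (Idh3b, Fh1) and 1 lower (2.94% and 1.72% of all genes), Idh3g, the gamma subunit of isocitrate dehydrogenase, by -0.67 ± 0.08. With the block 8 of the 20 were higher and 1 lower (8.73% and 8.11% of all genes).

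As a description over the 12 libraries, the median correlation between pairs of mitochondrial genes was 0.73, between pairs of 82 nuclear genes with a mean of at least 1 CPM it was 0.60, and between a mitochondrial and a nuclear gene it was 0.22. All pairs share libraries, depth and mice. The nuclear genes most like the mitochondrial sum were Cox7a2l (0.75), Ndufb5 (0.71) and Atp5c1 (0.70), and the least like were Uqcrc1 (-0.60), Sdhaf2 (-0.35) and Ndufab1 (-0.16).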

How the data were processed

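RNA from primary hepatocytes of 3 mice was sequenced in 12 libraries on the BGISEQ-500 platform, per the labels. The authors deposited estimated counts and TPM per gene, made with kallisto 0.4.6, Trim Galore 0.6.4 and GRCm38.p6, per the submitters' processing notes. No source used here gives the annotation, strand setting or filters. Gene symbols came from GENCODE M21 (55144 of 55385 identifiers matched). Estimated counts were rounded and tested with edgeR 4.0.16 in R 4.3.3 over all 12 libraries with 1 mean per group, TMM scaling and filterByExpr, which left 15090 genes. Two-sided P values, with Benjamini-Hochberg adjustment across these genes and a threshold of 0.05, were computed for 6 pairs of groups and for the interaction, which subtracts the changes of both single knockdowns from that of the double one. After ±, fold changes carry their standard error and levels their SD. Replicates are separate mice, and equal numbers mean the same mouse, per the design text. Residuals of same-mouse libraries correlated in all 18 pairs (r 0.16 to 0.68), and for 12 of 12 libraries the closest other library came from the same mouse. On simulated data for siHnf4a against siCon (14724 genes), the test found 69 of 100 genes with a change of 1 log2 unit and 98 of 100 with a change of 2, and 9 of 176 calls were false. The simulated libraries had no mouse effect and no planted change under 1 log2 unit. They do not describe the test at the smaller changes of the nuclear genes.

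Copies were found with blastn 2.17.0 (at least 95% identity over 50% of the shorter transcript). Transcript lengths came from GENCODE M21 and promoters from RefSeq. The alternatives were RLE scaling, scaling without mitochondrial genes, DESeq2 1.42.0, other filters, mouse as a block, only the compared groups, limma 3.58.1 on log2(TPM + 1) or log2(TPM + 0.1), copies added to their genes, and leaving out each library. Copies added together with the block was chosen after the data had been seen. The members and lists were chosen with earlier results of these data known. Genes were named from the following: the 13 mitochondrial genes, the most abundant of each complex, the isoform genes, up to 8 largest calls in each direction, the biogenesis regulators, up to 4 calls of each other list, and the siRNA targets. Not all of the largest calls, biogenesis regulators and calls of other lists are named. Further genes named for their role, size of change or copies were chosen after their values had been seen. Coa1 and Fastkd4 of the lists were not found.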

Additional observations from a re-analysis of the deposited data

How the results depend on the processing

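Calls of nuclear genes in siHnf4a against siCon numbered 10 in the main setting, 21 with DESeq2, 38 with the replicate block (mouse), 39 with copies added and the block, and 5 with limma on log2(TPM + 1) without a filter. For siCebpa against siCon the 34 became 16 without a filter, 55 with the block, 56 with copies and the block, 0 with only the compared groups, 10 with limma on TPM at either pseudocount and 4 without its filter. For the double knockdown against siCon the 6 became 12 with DESeq2, 20 with the block, 20 with copies and the block, 3 with limma on TPM at either pseudocount and 2 without its filter. Against siCebpa, the 12 of the double knockdown became 5 without a filter, 19 with DESeq2, 25 with the block, 26 with copies and the block, 2 with only the compared groups, and 2 with limma on TPM at either pseudocount or without its filter. The 18 of siHnf4a against siCebpa became 10 without a filter, 8 with only the compared groups, 7 with limma on TPM at either pseudocount, 6 without its filter and 28 with copies and the block. The 0 of the interaction became 21 with DESeq2, 27 with the block and 28 with copies and the block. Calls over all genes moved with the setting too. In siHnf4a against siCon they went from 1093 higher and 1100 lower to 2187 and 2346 with the block. In siCebpa against siCon they went from 704 in all to 45 with only the compared groups. Other calls over all genes are not given in this section, and whether the shifts were particular to these genes was not tested. Their cause was not tested either. Leaving out each library in turn gave 3 to 13, 8 to 30, 2 to 11, 4 to 13 and 6 to 20 calls in the order above, 0 for the interaction and for the double knockdown against siHnf4a, and for mitochondrial genes 0 to 1 in siHnf4a against siCebpa and 0 elsewhere. Over all alternatives run, 0 calls of named genes changed sign, but 735 of their values no longer passed the threshold. Every alternative kept 2 of the 29 named calls in siCebpa against siCon and 7 of 25 in siHnf4a against siCon. Call counts and shares carry no sign, so a reversal could not show in them. The replicate block changed no count of mitochondrial calls.

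The mitochondrial share of TPM was 5.14%, 5.20%, 4.96% and 5.44% in siCon, siHnf4a, siCebpa and the double knockdown, and with copies added the share of counts was 3.67% in siCon, 3.92% in siCebpa and 4.06% in the double knockdown. Without each library the share of counts ran from 2.83% to 2.93%, 2.63% to 3.48%, 2.79% to 3.24% and 3.11% to 3.30%. The log2 ratios of siCebpa to siCon in summed TPM of complexes I, II and IV (0.20, 0.03 and 0.21) were 0.35, 0.20 and 0.41 in CPM. Without each library those of complexes I to V ran from 0.16 to 0.24, -0.01 to 0.07, 0.20 to 0.30, 0.18 to 0.25 and 0.11 to 0.21. Standard errors of the mitochondrial genes against siCon, up to 0.51 log2 units for mt-Nd3, limit what could be called there.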
